A study of Homo sapiens with 20 samples.

Results

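The genes of the mitogen-activated protein kinase (MAP kinase) cascade were taken as the protein-coding genes of the GENCODE annotation of hg38 whose symbols begin with MAP4K, MAP3K, MAP2K or MAPK and end in a number. There were 43 of them among 20046 protein-coding genes: 5 MAP4K, 18 MAP3K, 7 MAP2K and 13 MAPK genes. An N6-methyladenosine (m6A) peak belonged to a gene when its summit lay in one of the gene's exons, and a gene with such a peak was called marked. By this rule 621 of 231465 peaks belonged to the cascade. Peaks that touch in any library form 1 merged region, and the 621 peaks lay in 102 of 43676 merged regions.

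The peaks come from methylated RNA immunoprecipitation sequencing (MeRIP-seq), in which fragmented RNA is pulled down with an antibody to m6A (IP) and compared with input RNA that was not pulled down. The cells were T24, a bladder cancer cell line sensitive to cisplatin, and T24R2, a resistant line derived from it by serial desensitization to the drug. Both were collected on day 3, with 5 replicates of each line for IP and for input, and per the study's methods T24R2 was kept in medium with cisplatin. The resistant line is 1 derivative, so resistance and any other difference between the lines cannot be told apart, and neither can resistance and the drug in the medium. The labels do not say that the replicates were separate cultures, so the tests measure the spread between these libraries, which may be technical.

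A MAP kinase cascade passes a signal through a chain of protein kinases. A MAP4K can activate a MAP3K, a MAP3K phosphorylates a MAP2K, and the MAP2K, which is highly selective, phosphorylates a MAPK on a threonine and a tyrosine. The ERK branch responds mainly to growth factors, whereas the JNK and p38 branches respond to stress, including DNA damage of the kind that cisplatin causes. m6A is a modification of mRNA found mostly in long exons and around stop codons, within the motif DRACH, where the first letter can be any base but C, the second a purine and the last any base but G.

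The following windows show the mRNA-sense DNA letters around the DRACH nearest the summit of 2 kinds of region. The first are regions with an unadjusted p under 0.05 by Fisher's exact test of presence in the lines. The second are the strongest and weakest region of each tier present in all libraries, with MAP3K9 given further below. The windows do not cover every region compared between the lines. They are read from hg38, 5′ to 3′, with the DRACH in capitals and 10 bases on each side.
MAP4K4, 3′UTR, chr2:101891611-101891635, plus strand: tggcgacgatGAACAtgccgttggt
MAP3K7, 3′UTR, chr6:90516229-90516253, minus strand: cagatgcagtGAACTgtggctgtat
MAP3K14, 3′UTR, chr17:45263767-45263791, minus strand: gtctgtggatGGACAtgatcagtgc
MAP2K3, 3′UTR, chr17:21314462-21314486, plus strand: gctgctcctaGGACCcgtctccagc
MAP2K4, 3′UTR, chr17:12141663-12141687, plus strand: ctgaacatagAAACTcgggcttgag
MAPK6, coding exon 2, chr15:52046722-52046746, plus strand: ggaagccaatTAACAgacgatgtgg
MAPK7, coding exon 3, chr17:19379817-19379841, plus strand: ttcgatgtggTGACCaatgccaagc
MAPK7, 3′UTR, chr17:19383252-19383276, plus strand: ctgccacagtAGACCtagttccagg
MAPK12, 3′UTR, chr22:50253312-50253336, minus strand: gttgccacctTGACCttggctgggg
MAPK12, exon of another transcript, chr22:50254920-50254944, minus strand: ctggtggagaTGACCtctggctgga
MAPK13, 3′UTR, chr6:36139464-36139488, plus strand: ttcaagcagaGGACAgaagggtcct

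The next windows come from regions in the coding part of the last exon of 4 mixed-lineage kinases, MAP3Ks that lead to JNK. The 4 positions were not aligned with each other. These genes were chosen after their values were seen.
MAP3K9, chr14:70730417-70730441, minus strand: gagcggaactGAACAcacacaggcc
MAP3K10, chr19:40215059-40215083, plus strand: cccaccacccTGACCtttgccccga
MAP3K11, chr11:65598413-65598437, minus strand: cgagcaccctGGACCttgttcccgg
MAP3K21, chr1:233382525-233382549, plus strand: gggtcgcccaGGACCacatcccacc

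A DRACH lay within 50 nt of the median summit on the gene's strand in 84.3% of the 102 cascade regions and in 88.1% of the regions of all protein-coding genes. On the opposite strand of the same windows the shares were 65.7% and 72.7%, so that most windows of this length hold the motif on either strand. The match is a description and not a mapped modified base. In the MAP3K9 window the A of the motif lay 3 nt upstream of the median summit, in that of MAP2K4 1 nt downstream, and in that of MAPK13 30 nt upstream.

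In all, 28 of the 43 genes, 65.1%, were marked in at least 1 library, beside 51.1% of all protein-coding genes. The other 15 genes had no exonic peak in any library. Of the 43, 22 genes (51.2%) were marked in all 10 libraries, beside 27.5% of all protein-coding genes. The remaining 6 genes, marked in 1 to 9 libraries, were MAP4K2, MAP4K4, MAP2K1, MAPK3, MAPK9 and MAPK13. A gene without a peak may lack m6A or may have too little RNA for a peak to be called. The lists hold no expression level with which to tell these apart.

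The counts by tier stand beside 51.1% of all protein-coding genes marked in at least 1 library and 27.5% marked in all 10. Differences between the tiers were not tested, and most tiers hold few genes. In the MAP3K tier 14 of 18 genes were marked, and all 14 were marked in every one of the 10 libraries. In the MAP2K tier 4 of 7 genes were marked, 3 of them in all 10 libraries. In the MAPK tier the numbers were 8 of 13 and 5, and in the MAP4K tier 2 of 5 and 0. The MAP3K tier held 71 of the 102 regions and 455 of the 621 peaks.

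**Figure D1:**
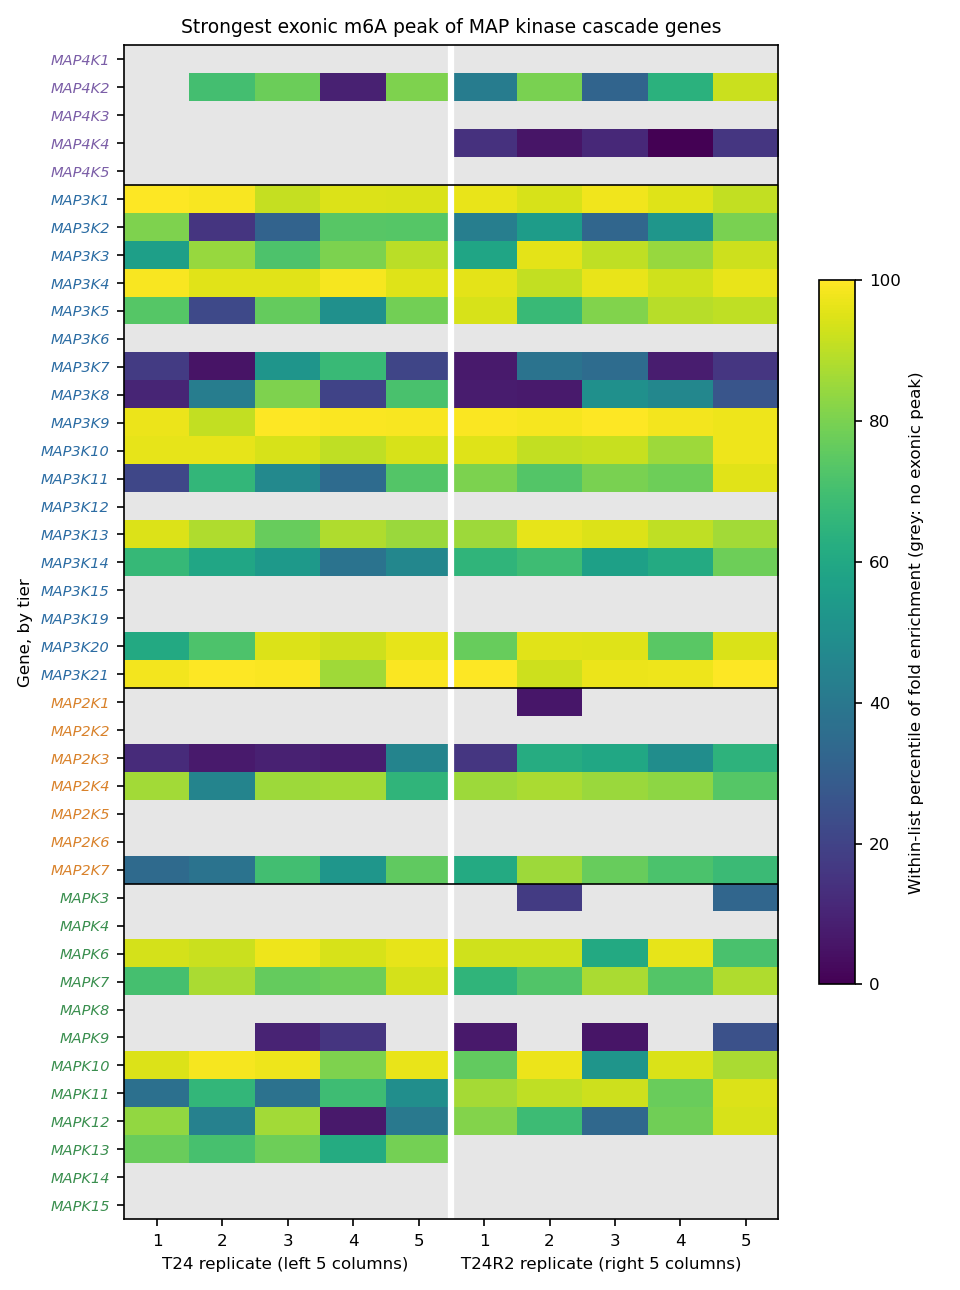
Strongest exonic m6A peak of each cascade gene shown (rows, by tier) in each of the 10 IP libraries (columns, T24 on the left and T24R2 on the right). Colour gives the percentile of its fold enrichment within that library's peak list and grey marks no exonic peak. The 14 marked MAP3K genes are coloured in all 10 columns, MAPK13 is coloured in the 5 T24 columns and MAP4K4 in the 5 T24R2 columns.

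Median transcript length was 4775.5 nt in the 28 marked genes and 4335 nt in the 15 unmarked ones. Over all protein-coding genes with a MANE Select transcript, the reference transcript of a gene, the medians were 3749 nt for marked and 2227 nt for unmarked genes. Of the 15 unmarked cascade genes, 10 had no peak anywhere between their ends and 5 had peaks only outside their exons. MAPK14, which encodes p38α, had 33 such peaks in 8 regions, found in all 10 libraries. MAPK8, which encodes JNK1, had 10 such peaks, in 4 libraries of each line.

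The number of marked genes changed little between libraries. It was 23, 24, 25, 25 and 24 in the T24 libraries (24.2 ± 0.837, SD, n = 5) and 25, 26, 25, 24 and 26 in the T24R2 libraries (25.2 ± 0.837, SD, n = 5), so the lines overlapped. Over all protein-coding genes the marked number was 7215 ± 348 in T24 and 8135 ± 480 in T24R2, and the lists held 17203 to 22901 peaks in T24 and 22671 to 33120 in T24R2. The cascade's share of each list, in peaks per 1000, was 2.78 ± 0.369 in T24 and 2.61 ± 0.106 in T24R2, again with overlap. Because the T24R2 lists were longer, presence was also counted with the same number of peaks in each list, as given beside the regions it concerns. As a check of the labelled cell type, the epithelial keratin gene KRT7 had an exonic peak in all 10 libraries. GATA3, a urothelial transcription factor, had one in 5 T24 libraries and 0 T24R2 libraries. KRT18 had one in 2 T24R2 libraries, and the other 7 of 10 epithelial markers had none. Of 4 markers of other cells PECAM1 was marked in all 10, COL1A1 in 1, and PTPRC and DES in 0, although a peak is not a level of expression.

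Of the 102 regions, 36 (35.3%) were called in all 10 libraries, beside 31.5% of the 25300 regions with a summit in a protein-coding exon. Regions of a single library numbered 22 (21.6%), beside 20.7%. Many of these 22 came from T24R2 replicate 5, the library with the longest list. Strength was ranked within each list as the percentile of the fold enrichment of IP over input, and a region's strongest peak was used. Over the 36 regions the mean percentile of a region ranged from 26.8 to 98.0 with a median of 70.1, beside a median of 64.2 over 7977 such exonic regions. The tier medians were 71.4 for 28 MAP3K regions, 62.3 for 3 MAP2K regions and 69.2 for 5 MAPK regions.

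Of the 36 regions, 35 had a median summit inside the MANE Select transcript. The summit lay in the coding sequence (CDS) in 68.6%, in the 3′UTR in 28.6% and in the 5′UTR in 2.86% of them, beside 60.7%, 33.8% and 5.58% over all protein-coding genes. It lay in an exon of at least 400 nt in 88.6%, beside 89.8%. It lay in the last exon in 45.7%, beside 59.9%, and within 400 nt of the stop codon in 37.1%, beside 40.7%. None of the 35 lay in an internal exon under 200 nt, beside 3.85% over all protein-coding genes. Over all cascade regions in a MANE Select transcript, however, 28 of 93 (30.1%) lay in such a short internal exon, beside 17.7% over all protein-coding genes. These short-exon regions were thus called in some libraries only. Several of them lay in the related genes MAP3K9, MAP3K10, MAP3K11 and MAP3K21, so they are not all independent of each other. Over all protein-coding genes such exons held 3997 regions, but only 291 of the regions called in all 10 libraries.

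**Figure D2:**
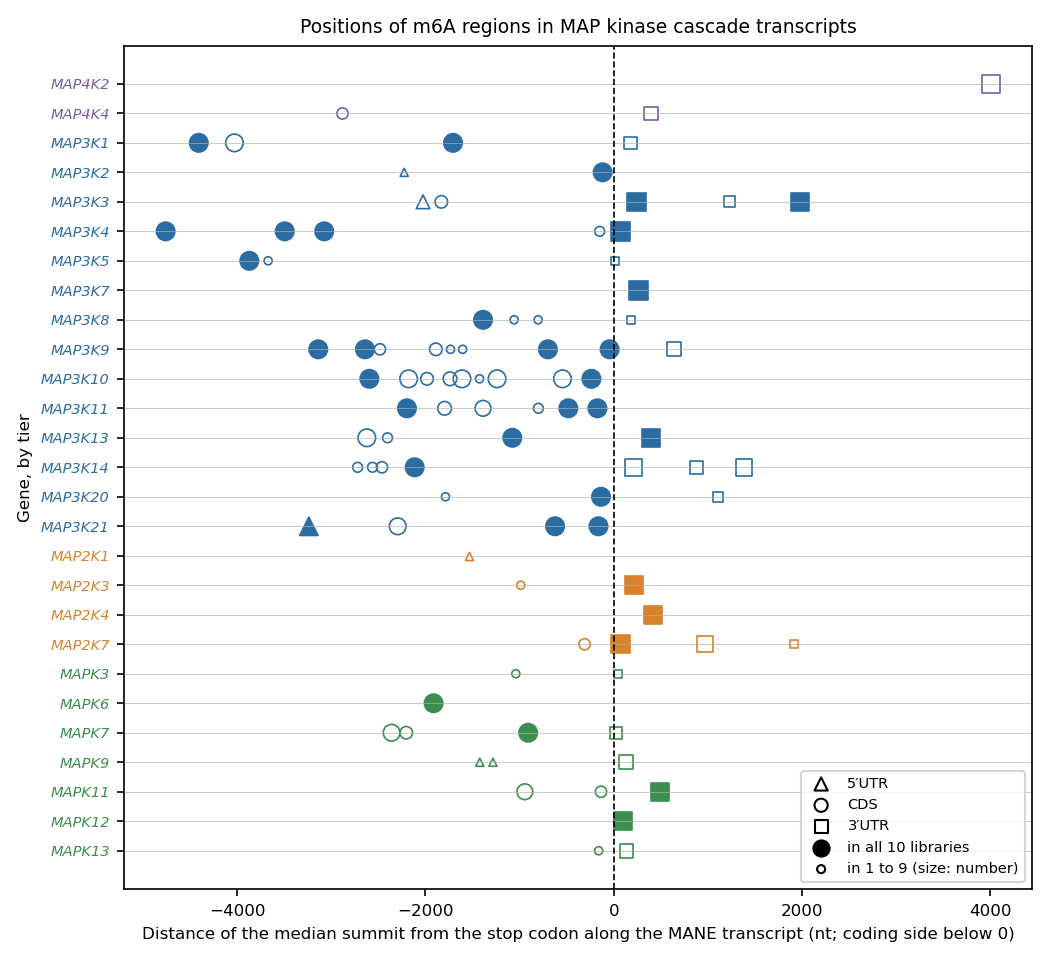
Median summits of the 93 regions that lie in a MANE Select transcript, by gene (rows) and distance from the stop codon in nt along the transcript, with the coding side below 0. Shape gives the part of the transcript, filled symbols are regions called in all 10 libraries, and the size of open symbols grows with the number of libraries. Filled MAP3K symbols lie on both sides of the stop codon and far upstream, whereas the 3 filled MAP2K symbols lie in the 3′UTR.

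Only 2 of the 5 MAP4K genes, upstream kinases related to yeast Ste20, were marked. MAP4K2 had 1 region in its 3′UTR (chr11:64785213-64785685), 4004 nt past the stop codon, in 4 T24 and 5 T24R2 libraries. Its percentile was 70.0, 77.5, 9.11 and 80.8 in the T24 libraries with a peak and 41.8, 80.0, 32.3, 63.9 and 92.1 in the T24R2 libraries. The values thus spread widely within both lines and overlapped. MAP4K1, MAP4K3 and MAP4K5 had no peak between their ends in any library.

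MAP4K4, which acts upstream of JNK, had exonic peaks in T24R2 alone. Its 3′UTR region (chr2:101891517-101891777, last exon, 393 nt past the stop codon) had a peak in every T24R2 library, 5 in all, and in 0 T24 libraries. Its fold enrichment in T24R2 was 4.17, 2.81, 3.82, 1.93 and 4.34, and its percentile 14.4, 1.46, 11.6, 0.104 and 15.7. All were thus near the weak end of their lists. Fisher's exact test gave an unadjusted p of 0.00794, the smallest that 5 against 5 allows, and an adjusted p of 0.195 over all merged regions. With peaks restricted to a −log10 q of at least 10 the region remained in 3 T24R2 libraries, and with equal numbers of peaks per list in 4. A coding region in exon 13 was called in 0 T24 and 3 T24R2 libraries. Peaks inside MAP4K4 but outside its exons were found in all 10 libraries.

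The MAP3K genes carried the most regions. MAP3K10 had 10, MAP3K9 had 9, and MAP3K11 and MAP3K14 had 7 each. MAP3K9, MAP3K10, MAP3K11 and MAP3K21 encode the mixed-lineage kinases MLK1, MLK2, MLK3 and MLK4. All 4 had a region in the first exon and a coding region in the last exon in all 10 libraries. The summit in the last exon lay 44 nt before the stop codon in MAP3K9, 237 nt in MAP3K10, 173 nt in MAP3K11 and 162 nt in MAP3K21. Such a region is not particular to them, since MAP3K2 and MAP3K20 also had a coding region in the last exon in all 10 libraries. The next-to-last exon held a further coding region in all 10 libraries for MAP3K9, MAP3K11 and MAP3K21 and in 9 for MAP3K10. Regions in exon 2 were called in all 10 libraries for MAP3K9, where that exon has 414 nt. They were called in 9, 5 and 8 for MAP3K10, MAP3K11 and MAP3K21, where it has 181 nt. However, the summit lay in an exon in only 3 T24 and 3 T24R2 libraries for MAP3K10. For MAP3K21 it did so in 2 T24 and 3 T24R2 libraries. These genes are paralogs, so their patterns should not be counted as independent of each other. Their sequences were not compared.

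The last-exon region of MAP3K9 (chr14:70730001-70731006) was the strongest of the cascade. Its percentile was 96.9, 91.0, 99.9, 99.4 and 98.9 in T24 and 99.6, 98.7, 99.9, 98.3 and 97.5 in T24R2, so it stood among the strongest peaks of every list. The log2 difference, T24R2 minus T24, was 0.06 ± 0.23 (SE; adjusted p = 0.940, limma). The last-exon region of MAP3K21 (chr1:233382192-233382848) had a mean percentile of 97.0, that of MAP3K10 of 81.0 and that of MAP3K11 of 52.0. The last-exon regions of these genes thus differed in strength.

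The weakest MAP3K region present in all 10 libraries was in the 3′UTR of MAP3K7 (chr6:90515952-90516697, 264 nt past the stop codon). MAP3K7 encodes TAK1, which relays signals of cytokine receptors to JNK, p38 and NF-κB. Its percentile was 17.4, 5.36, 52.2, 67.6 and 21.0 in T24 and 7.05, 38.0, 35.3, 8.08 and 15.9 in T24R2. The lines overlapped, and the log2 difference was -0.35 ± 0.27 (SE; adjusted p = 0.614).

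The other marked MAP3K genes differed in where the region shared by all libraries lay. In MAP3K1, which encodes the large kinase MEKK1, 2 such regions lay in exons 1 and 14. In MAP3K4, a kinase upstream of p38 and JNK, they lay in exons 1, 3, 4 and 27, of which exon 1 held an exonic summit in only 2 libraries because most summits of that region fell outside the gene's exons. MAP3K5, which encodes ASK1, a kinase held inactive by thioredoxin until oxidative stress, had 1 in exon 1. The related MAP3K6 and MAP3K15 had no exonic peak. MAP3K2 had its region 118 nt before the stop codon, and MAP3K3 had 2 in its 3′UTR, 1 of them with exonic summits in only 5 libraries. MAP3K8, which encodes TPL2, an activator of the ERK branch, had 1 in coding exon 3. MAP3K20, which encodes ZAK, a sensor of stalled ribosomes, had 1 in the CDS of its last exon, 135 nt before the stop codon. MAP3K13 had 1 in coding exon 11 and 1 in the 3′UTR, while its paralog MAP3K12 had none. MAP3K19 was also unmarked.

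MAP3K14 encodes NIK, the kinase of the noncanonical NF-κB pathway. Its region in exon 5 was called in all 10 libraries. A 3′UTR region (chr17:45263566-45263879, 877 nt past the stop codon) was called in 0 T24 and 4 T24R2 libraries, with percentiles of 5.53, 9.80, 27.0 and 33.5 and fold enrichments of 3.26, 4.29, 5.25 and 5.46. The other 3′UTR regions of MAP3K14 were each called in 3 T24 and 5 T24R2 libraries. With 0 against 4 libraries Fisher's exact test gave an unadjusted p of 0.0476 and an adjusted p of 0.517. With equal numbers of peaks per list the region was in 0 libraries of each line.

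In the MAP2K tier, the 3 genes marked in all libraries activate the stress branches. MAP2K3 is selective for p38, MAP2K7 for JNK, and MAP2K4 can phosphorylate both. Each had its region in the 3′UTR, 218, 70 and 416 nt past the stop codon for MAP2K3, MAP2K7 and MAP2K4. Of the MAP2Ks of the ERK branch, MAP2K1 had 1 exonic peak, in 1 T24R2 library, and MAP2K2 had none. MAP2K1 also had 10 peaks outside its exons, in 3 T24 and 5 T24R2 libraries, and MAP2K2 had 1. MAP2K5, the activator of ERK5, and MAP2K6, an activator of p38 whose transcript has 13405 nt, had no peak between their ends.

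The region of MAP2K4 (chr17:12141182-12142115) was the strongest of the tier, with percentiles of 86.2, 45.2, 85.3, 86.3 and 65.5 in T24 and 85.2, 87.3, 85.1, 83.0 and 73.5 in T24R2. The lines overlapped, and the log2 difference was 0.05 ± 0.24 (SE; adjusted p = 0.950). The region of MAP2K3 (chr17:21314023-21314807) was the weakest, with percentiles of 12.4, 7.12, 9.19, 7.82 and 45.0 in T24 and 15.8, 61.9, 59.5, 48.9 and 64.7 in T24R2. All but 1 T24R2 library thus lay above every T24 library. Its fold enrichment was 4.36 ± 1.14 in T24 and 7.09 ± 1.73 in T24R2 (SD, n = 5). The log2 difference of 0.60 ± 0.26 (SE) did not pass the threshold (adjusted p = 0.295, limma). With peaks restricted to a −log10 q of at least 10, it was in 0 T24 and 5 T24R2 libraries.

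In the MAPK tier, MAPK3, which encodes ERK1, had 2 exonic peaks, each in a single T24R2 library. Of the JNK genes, MAPK8 was unmarked and MAPK9 had a weak 3′UTR region in 2 T24 and 3 T24R2 libraries, with further single-library peaks in exons 1 and 2. MAPK10 had 1 region (chr4:86000345-86000949) in all 10 libraries, with percentiles of 52.3 to 98.8. However, it lay outside the MANE Select transcript of MAPK10 and overlapped an exon of ARHGAP24. Since the lists have no strand, the 2 genes cannot be told apart there. MAPK10 is nevertheless counted among the 5 MAPK genes marked in all 10 libraries. With exons of MANE Select transcripts alone, 27 cascade genes were marked and 21 were marked in all libraries. Exons of another gene also overlapped 7 further cascade regions, in MAP3K4, MAP3K9, MAP3K13, MAP3K14, MAP3K20, MAP2K7 and MAPK7.

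MAPK6, which encodes the atypical kinase ERK3, had the strongest MAPK region, in its coding exon 2 (chr15:52046417-52046956). Its percentile was 93.5, 91.8, 97.5, 93.8 and 96.2 in T24 and 92.9, 92.7, 60.6, 96.2 and 71.1 in T24R2. A pair of T24R2 libraries was thus lower than the others. The log2 difference was -0.49 ± 0.25 (SE; adjusted p = 0.391). Its relative MAPK4 and the atypical MAPK15 had no exonic peak.

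MAPK7, which encodes ERK5, had a coding region in all 10 libraries in exon 5, and 2 regions in 0 T24 and 4 T24R2 libraries. The first of these was in coding exon 3 (chr17:19379699-19380075), with percentiles of 2.90, 72.7, 28.9 and 44.4. The second was in the 3′UTR (chr17:19383004-19383375, 26 nt past the stop codon), with percentiles of 8.39, 9.18, 4.48 and 19.6. Each had an unadjusted p of 0.0476 and an adjusted p of 0.517 by Fisher's exact test. With equal numbers of peaks per list they were in 2 and 0 T24R2 libraries.

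Among the p38 genes, MAPK13 had exonic peaks in T24 alone and MAPK11 had higher percentiles in T24R2, although neither passed the adjusted test. MAPK13, which encodes p38δ, carried a mark in the 5 T24 libraries and in 0 of T24R2. Its region (chr6:36139270-36139727) lies in the 3′UTR, 135 nt past the stop codon. The fold enrichment in T24 was 10.8, 8.68, 11.0, 8.05 and 9.73 (9.65 ± 1.29, SD, n = 5), and the percentile 77.1, 71.0, 77.9, 61.7 and 79.0. These peaks were in the upper part of every T24 list, unlike those of MAP4K4 in T24R2. The unadjusted p was 0.00794 and the adjusted p 0.195 by Fisher's exact test. It was the 1 T24-only region of the 102 (0.98%), near the 0.953% over all exonic regions. The same 5 to 0 count held for peaks with a −log10 q of at least 10 and with equal numbers of peaks per list. It became 3 to 0 when a library's peaks had to cover at least 50% of the region. No peak lay anywhere else in MAPK13 in T24R2, in exon or intron, so the lists cannot tell a lost mark from a lower RNA level.

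MAPK11, which encodes p38β, had a 3′UTR region (chr22:50263726-50265099, 489 nt past the stop codon) in all 10 libraries. Its percentile was 36.8, 46.3, 37.6, 68.0 and 49.5 in T24 and 86.6, 90.6, 92.4, 68.9 and 94.8 in T24R2. Every T24R2 library was above every T24 library, though by less than 1 percentile point at the closest. The fold enrichment was 6.96 ± 1.07 in T24 and 13.0 ± 2.84 in T24R2 (SD, n = 5). The log2 difference was 0.79 ± 0.25 (SE; unadjusted p = 0.0038, adjusted p = 0.123, limma). This was the lowest adjusted p of the 36 regions and did not pass the threshold. It was the only one of the 36 (2.78%) whose percentiles did not overlap and were higher in T24R2, beside 3.63% of the 9577 regions called in all 10 libraries genome-wide. None of the 36 was lower without overlap, beside 0.867%.

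MAPK12, which encodes p38γ, had the weakest MAPK region present in all libraries, in the 3′UTR (chr22:50252737-50253585, 101 nt past the stop codon). Its percentile was 83.7, 44.0, 86.0, 6.65 and 40.6 in T24 and 81.3, 68.4, 21.7, 78.5 and 94.0 in T24R2. Values were uneven within both lines, and the SE was the largest of the 36 regions (log2 difference 0.27 ± 0.34, adjusted p = 0.793). Another region (chr22:50254902-50255106), in an exon of a transcript other than MANE Select, was in 0 T24 and 4 T24R2 libraries with percentiles of 23.5, 33.9, 31.8 and 31.0 (unadjusted p = 0.0476, adjusted p = 0.517, Fisher's exact test). With equal numbers of peaks per list it was in 0 T24 and 3 T24R2 libraries.

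**Figure D3:**
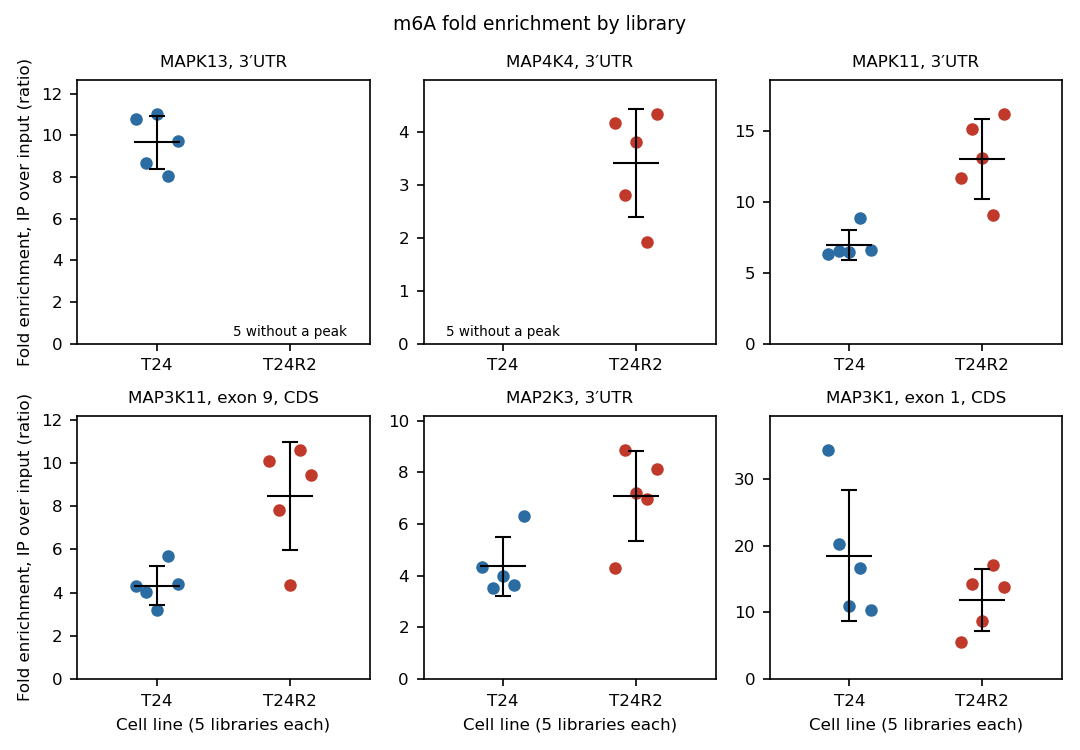
Fold enrichment of IP over input (linear ratio) in each library for 6 regions of MAPK13, MAP4K4, MAPK11, MAP3K11, MAP2K3 and MAP3K1. Points are libraries, bars are mean and SD where all 5 libraries of a line had a peak, and a line without a peak is marked as such. MAPK13 has points only in T24 (8.05 to 11.0) and MAP4K4 only in T24R2 (1.93 to 4.34), while the 5 T24R2 points of MAPK11 lie above its 5 T24 points.

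Over the cascade as a whole, the shares of regions that differed in presence between the lines stood near those over all exonic regions or below them. Of the 102 regions, 1 (0.98%) was called in T24R2 only, beside 2.3%, and 1 (0.98%) in T24 only, beside 0.953%. An unadjusted Fisher p under 0.05 was reached by 5 regions more often called in T24R2 (4.9%, beside 6%) and by 1 more often called in T24 (0.98%, beside 1.71%). After adjustment 0 of all 43676 regions passed, with a lowest adjusted p of 0.195, and 4021 had an unadjusted p under 0.05. The smallest Fisher p that 5 against 5 libraries allow is 0.00794, so over 43676 regions no single region can pass alone. Not passing this test therefore does not show that presence was alike in the lines.

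Strength was compared by limma on log2 fold enrichment in the 9577 regions called in all 10 libraries. Of these, 51 were higher and 31 lower in T24R2 (0.856%), and none of the 36 cascade regions was among them. An unadjusted p under 0.05 was reached by 4 of 36 (11.1%), beside 14.1% over all regions. By sign 20 of the 36 were higher and 16 lower in T24R2, and the median log2 difference was 0.05, beside 0.02 over all regions. Differences ranged from -0.70 to 0.83 with SEs of 0.23 to 0.34. At 2 SE either side these intervals are wide, so changes of moderate size in single regions were not detectable here.

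The 4 regions with an unadjusted p under 0.05 were those of MAPK11 and MAP2K3 and 2 MAP3K regions. MAPK11 and both MAP3K regions were singled out after their values were seen. The next-to-last exon of MAP3K11 (chr11:65599409-65599860, coding exon 9, 482 nt before the stop codon) had percentiles of 12.2, 11.5, 4.12, 34.9 and 17.6 in T24 and 80.1, 51.9, 18.9, 77.9 and 74.7 in T24R2. All but 1 T24R2 library lay above every T24 library, and the log2 difference was 0.83 ± 0.27 (SE; adjusted p = 0.144). The first exon of MAP3K1 (chr5:56815487-56816543) had percentiles of 99.9, 99.0, 78.2, 94.8 and 82.7 in T24 and 35.4, 88.6, 74.0, 95.1 and 90.9 in T24R2. The lines overlapped, with a log2 difference of -0.70 ± 0.32 (SE; adjusted p = 0.318). The unadjusted limma p of this MAP3K1 region was 0.081 without centring and 0.151 without T24 replicate 1. That of the MAP2K3 region was 0.059 with quantile normalisation. Those of the MAPK11 and MAP3K11 regions stayed under 0.05 in every limma setting in which they were tested.

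**Figure D4:**
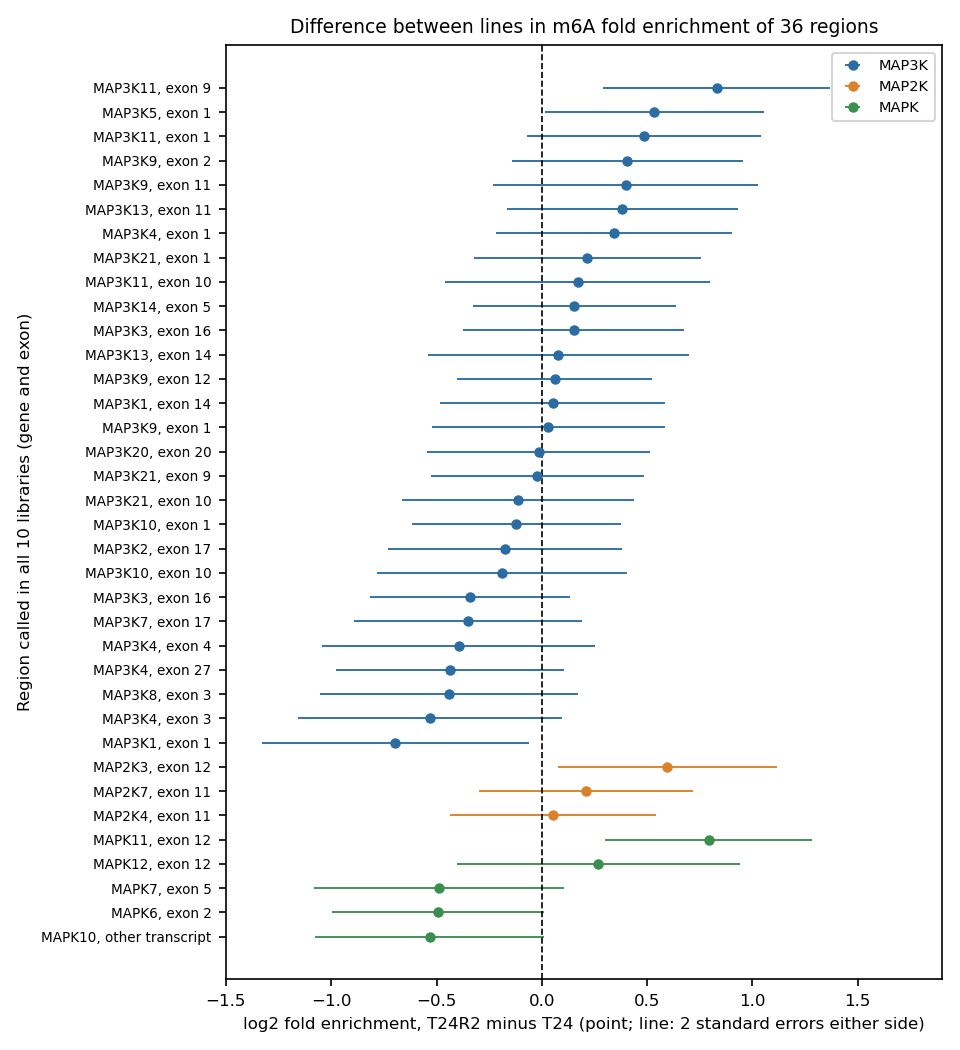
Log2 difference in fold enrichment, T24R2 minus T24, for the 36 regions called in all 10 libraries, by tier and named by gene and exon. Points are limma estimates and lines span 2 standard errors on each side. Most lines cross 0, and the estimates run from -0.70 for MAP3K1 exon 1 to 0.83 for MAP3K11 exon 9.

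Other genes of the pathway were taken from lists by function, and their counts stand beside the 51.1% of all protein-coding genes marked in at least 1 library and the 27.5% marked in all 10. Of 7 kinases that act as MAP3Ks under other symbols, such as the RAF and TAO kinases, 6 were marked and 4 of them in all libraries. All 8 scaffolds and adaptors, which hold the kinases together, were marked, 5 in all libraries. Of 11 kinases activated by MAPKs, 7 were marked and 2 in all libraries. Of 10 dual-specificity phosphatases, which switch MAPKs off, 8 were marked and 7 in all libraries. NLK, an atypical MAPK, was marked, and so was 1 of the 2 MAP4K-like kinases, but neither in all libraries. No region of any of these lists passed the limma test, with 5, 5, 2 and 11 regions tested for the first 4 lists and 0 for the others. The median log2 differences of those 4 were -0.09, -0.32, 0.25 and 0.38, beside 0.02 over all regions.

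Line-specific regions in these lists were 7 of T24R2 and 1 of T24. The T24R2-only ones were 1 of 22 regions of the MAP3Ks with other symbols and 4 of 32 of the scaffolds and adaptors. They were 2 of 13 regions of the kinases activated by MAPKs and 0 of 20 of the phosphatases. The T24-only one was 1 of 2 regions of the MAP4K-like kinases. Over all exonic regions 581 (2.3%) were T24R2-only and 241 (0.953%) T24-only. The MAP4K-like kinases had 0 T24R2-only regions of 2, and NLK had 0 of 1. Among the 4 lists with more regions, only the phosphatases had a share of T24R2-only regions below 2.3%. These shares were not tested. TAOK3, TAB2 and MAPK8IP2 had 1 each called in 0 T24 and 5 T24R2 libraries, and KSR2, a scaffold of the ERK branch, had 2. MAPKAPK5, a kinase downstream of p38, had 2, at positions that also hold an exon of ADAM1A. TNIK, a relative of MAP4K4, had 1 in 5 T24 and 0 T24R2 libraries. Each had an unadjusted p of 0.00794 and an adjusted p of 0.195 by Fisher's exact test, so none passed. With equal numbers of peaks per list, 5 T24R2 libraries kept 1 of the KSR2 regions and that of MAPK8IP2. The other KSR2 region was then in 2, the MAPKAPK5 regions in 4 and 3, that of TAOK3 in 3 and that of TAB2 in 0 T24R2 libraries, and that of TNIK in 2 T24 libraries.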

How the data were processed

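MeRIP-seq peak lists of 5 T24 and 5 T24R2 IP libraries were analysed, grouped by sample title. The authors aligned reads to hg38 with STAR 2.7.0, kept unique reads with SAMtools 1.10 and called peaks of each library over its input with MACS2 3.0.0a6. Fold enrichment is the authors' ratio of IP over local input. The deposited score, −log10 p-value and −log10 q-value come from the same caller, and the lowest −log10 q was 2.00. The lists hold no read counts, so depth is unknown and the study's count tests were not run. All 25 chromosomes fit hg38, and 104 contigs with other names hold no cascade gene.

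The members and lists were chosen with earlier results of these data known. Exons came from GENCODE 44 and positions from MANE Select transcripts. A library had a merged region when a peak overlapped it by at least 1 bp. Log2 fold enrichment (strongest peak per region, median-centred) was tested with limma 3.58.1 (R 4.3.3), with trend and Benjamini-Hochberg adjustment, and presence by two-sided Fisher's exact test, adjusted alike. Calls needed an adjusted p under 0.05. The limma step was tested on simulated data. Values in every library are given for regions called by limma, regions with an unadjusted Fisher p under 0.05, and the strongest and weakest region of each tier present in all libraries. A cascade gene is counted but not reported by name here.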

Additional observations from a re-analysis of the deposited data

Results flagged for a closer look

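The number of peaks with a summit in a cascade exon was 63, 56, 63, 65 and 91 in the T24R2 libraries. The value of 91 in T24R2 replicate 5 stood apart by Dixon's criterion, with a gap of 0.743 of the group's range (critical value 0.71 for 5 samples). It was 1 of 22 groups of values examined, and chance marks about 1 group in 20. That library also had the longest list, 33120 peaks, and its share of 2.75 cascade peaks per 1000 lay just above the other T24R2 libraries (2.47 to 2.64) and inside the range of T24 (2.27 to 3.19).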

How the results depend on the processing

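Of 289 values recomputed under alternative settings, 255 were counted as unchanged, 29 counts or differences moved and 5 log2 differences changed sign. Counts called unchanged could still differ by a ratio of up to about 1.5. Log2 differences called unchanged could differ in size, but not in sign or threshold. Many of the unchanged values were counts of cascade regions passing the limma test, which stayed at 0. No cascade region passed the limma test under any setting. The 5 sign changes, all of values that passed no test, came with 1 library left out. The log2 difference of MAP3K9 (0.06) then ranged from -0.064 to 0.15 (negative without T24 replicate 2 or T24R2 replicate 3), that of MAP2K4 (0.05) from -0.070 to 0.15 (negative without T24 replicate 2 or 5), and that of the MAPK12 3′UTR (0.27) from -0.018 to 0.48 (negative without T24 replicate 4).

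Genome-wide, regions higher in T24R2 (51) numbered 24 with peaks of −log10 q at least 5, 0 with the exact permutation test on percentiles, and 21 to 45 with 1 library left out (21 without T24R2 replicate 4). Regions lower in T24R2 (31) numbered 17 without centring (with 60 higher), 18 with −log10 q at least 5, 0 with the exact permutation test, and 13 to 35 with 1 library left out (13 without T24R2 replicate 4). The smallest p of that permutation test is 0.00794 and the 9577 regions limit what it can call.

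Cascade regions called in T24R2 only (1) numbered 0 with −log10 q at least 5 and 0 with equal numbers of peaks per list. They numbered 2 when peaks had to cover 50% of the region (MAP3K4 exon 1 and MAP3K10 exon 9, not MAP4K4), and 5 when 4 of 5 against at most 1 of 5 sufficed. With 1 library left out the range was 1 to 3. It was 3 without T24R2 replicate 1 or 3, when MAPK7 and MAPK12, or MAP3K14 and MAPK7, joined MAP4K4. With −log10 q at least 10 the count was 1, the MAP2K3 region. Cascade regions in T24 only (1) numbered 0 with 50% cover and 2 with the wider rule, which added a 5′UTR region of MAP3K3. Regions in all libraries (36) numbered 14 with −log10 q at least 10 and 16 with 50% cover. Genes marked in all libraries (22) numbered 13 with −log10 q at least 10, and the difference in marked genes per library, T24R2 minus T24, was then 2.8 rather than 1.0. Causes of these changes were not tested beyond what each setting removes.

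A replicate block, with the label's replicate number as a factor, gave 39 regions higher and 26 lower genome-wide and 0 cascade regions. Deviations of same-numbered libraries correlated at -0.04 to 0.12, so fold enrichment showed no pairing by number. Whether same-numbered libraries were handled together was not tested. The lines were not compared at equal read depth, which peak lists do not give.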
